A study of Mus musculus with 7 samples.

Results

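Basophils, mast cells and eosinophils are granulocytes of allergy and parasite defence, and 10 genes that mark them were followed in RNA from sorted haematopoietic stem cells (HSCs). The genes were Hdc, Mcpt8, Prss34, Cpa3, Fcer1a, Ms4a2, Cd200r3, Prg2, Prg3 and Epx, found by symbol among the 28786 genes of the deposited table. Hdc, Mcpt8 and Prg2 were picked because of how they differed between the 2 groups in these libraries, so their differences are given as a description, and no test of them is used as support. The other 7 were named for their cell types. The comparison was between libraries labelled control and libraries labelled MC38 colon cancer, a mouse colon carcinoma line carried here by C57BL/6J mice. All came from the bone marrow of femora and tibiae at an age of 6 to 8 weeks, with 1500 sorted HSCs and 12 PCR cycles per library. The labels give no genotype or treatment for the control mice beyond the word control. How and when tumours were established, the sort gates, and whether a library came from a single mouse are not stated in the labels. No label ties the libraries of a group to separate animals, so p-values measure library-to-library spread that may be technical.

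Mast cells and basophils bind IgE through the high-affinity receptor, whose alpha chain (Fcer1a) holds the antibody, whose beta chain (Ms4a2) amplifies the signal and whose gamma chains (Fcer1g) carry it inwards. Their granules hold histamine, made by histidine decarboxylase (Hdc), and proteases such as the basophil enzymes Mcpt8 and Prss34 and the mast cell carboxypeptidase Cpa3. Eosinophil granules hold toxic basic proteins (Prg2, Prg3) and a peroxidase (Epx). In the mouse these lineages arise from progenitors that express the transcription factor Gata2 and, in part, Gata1. Hdc, Cpa3 and Prg2 transcripts are also known from immature myeloid cells and progenitors, so a transcript alone does not identify a mature granulocyte.

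The stretches just upstream of Hdc, Mcpt8, Prss34 and Cpa3, genes of granule contents, are printed because their levels lay on opposite sides between the groups. Hdc and Cpa3 were higher in every MC38 library than in either control, and Mcpt8 and Prss34 were lower. Hdc and Mcpt8 had been picked for such differences, so their part in this split was fixed by the choice. Cpa3 (edgeR adjusted p = 0.41) and Prss34 (edgeR adjusted p = 0.15), which were not picked, did not pass the test described below. Each stretch is RefSeq sequence of GRCm38.p6, written 5′ to 3′ on the gene's own strand. It ends at the base before the start site, except for Mcpt8, whose stretch ends 77 bases upstream. The GENCODE model of Mcpt8 begins further out and its exon starts there. The GENCODE model of Hdc also begins further out, so the Hdc stretch lies inside that model, outside its exons. Capitals mark a GATA motif.
Hdc lies at chr2:126618679-126618928, minus strand, Mcpt8 at chr14:56085274-56085447, minus strand, Prss34 at chr17:25298144-25298393, plus strand and Cpa3 at chr3:20242182-20242431, minus strand.
Hdc: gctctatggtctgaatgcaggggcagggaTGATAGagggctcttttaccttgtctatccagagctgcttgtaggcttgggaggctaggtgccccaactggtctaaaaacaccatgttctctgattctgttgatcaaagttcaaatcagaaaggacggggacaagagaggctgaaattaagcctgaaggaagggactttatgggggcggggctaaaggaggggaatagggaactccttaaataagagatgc
Mcpt8: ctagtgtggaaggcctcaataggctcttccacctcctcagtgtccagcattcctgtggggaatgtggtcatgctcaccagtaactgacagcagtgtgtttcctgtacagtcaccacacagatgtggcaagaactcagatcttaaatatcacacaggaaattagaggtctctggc
Prss34: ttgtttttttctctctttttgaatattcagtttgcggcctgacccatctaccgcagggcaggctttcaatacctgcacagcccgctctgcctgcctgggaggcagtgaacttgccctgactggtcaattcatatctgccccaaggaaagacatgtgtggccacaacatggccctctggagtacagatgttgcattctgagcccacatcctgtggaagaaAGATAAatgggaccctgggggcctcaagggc
Cpa3: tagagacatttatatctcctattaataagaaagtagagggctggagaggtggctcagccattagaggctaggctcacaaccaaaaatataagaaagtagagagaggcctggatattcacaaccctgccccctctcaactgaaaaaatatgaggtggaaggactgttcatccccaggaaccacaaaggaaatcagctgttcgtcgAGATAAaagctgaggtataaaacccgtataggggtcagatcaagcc
The letters searched on both strands were AGATAA or AGATAG or TGATAA or TGATAG, forms that GATA factors are known to bind, in the 250 bases upstream of the start site. Prss34 had AGATAA from 31 to 26 bases upstream and Cpa3 had AGATAA from 46 to 41 bases upstream. Hdc had TGATAG from 221 to 216 bases upstream, and Mcpt8 had no match. Of the 9 members with an entry, 7 had at least 1 match, all but Mcpt8 and Epx, and Ms4a2 and Cd200r3 had 3 each. Among all 32851 promoter windows of the table, 26.5% had a match in the same stretch. A match describes the letters and not a site in use. For Prg2 no entry was found.

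The 2 control libraries used here held 12131546 and 12306066 counts and the 4 MC38 libraries 13368238 to 17657037. A further control column was left out because it was not an independent library. Its value was close to 0.353 of the summed counts of the other controls, with 95% of 9652 genes between 0.341 and 0.371. For the 9 members with a control count this ratio lay between 0.327 and 0.385. The 2 controls that were used held equal counts above 100 for 39 genes, none of them a member, and whether they are fully independent was not tested. As markers of the labelled cell type, all 15 stem cell genes were detected and their summed level was 1666 to 1876 CPM in control and 1652 to 1914 CPM in MC38 libraries (CPM, counts scaled to TMM-adjusted library size). Markers of mature neutrophils summed to far more, 28180 to 28490 CPM in control and 54310 to 61950 CPM in MC38.

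The levels of the 10 genes lay on both sides of the control levels. Hdc had been picked as higher in MC38 and Mcpt8 and Prg2 as lower, so that split was fixed by the choice. Of the 10, 2 (Hdc and Cpa3) were higher in every MC38 library than in either control, 4 (Mcpt8, Prss34, Prg2 and Epx) were lower in every one, and 4 overlapped or had no count. Among all 14226 tested genes 29.0% did not overlap, 14.0% higher and 15.0% lower in MC38. A filter on low counts let 8 members through and left out Ms4a2 and Prg3. In edgeR's quasi-likelihood test with Benjamini-Hochberg adjustment over all tested genes and a threshold of 0.05, 1 member was higher (Hdc) and 2 were lower (Mcpt8 and Prg2), which are the 3 picked for this pattern. Over all genes 1.61% were called, 1.04% higher and 0.569% lower. Since that contrast chose the 3, nothing is read from their count. Of the other 5 tested members none was called by edgeR. Prss34 and Epx, 2 of the 5, had an unadjusted p under 0.05, as did 17.5% of all tested genes. DESeq2 called Epx, which passed the low-count filter through the controls alone, so that this call supports nothing. Over all 15321 genes to which DESeq2 gave an adjusted p, 4.14% were higher and 2.57% lower. Without control replicate 1, and likewise without control replicate 2, the count was 1 higher and 0 lower, and without MC38 replicate 4 it was 1 and 1. A lower level in such bulk libraries cannot be told apart as fewer cells of a type or less RNA per cell.

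**Figure D1:**
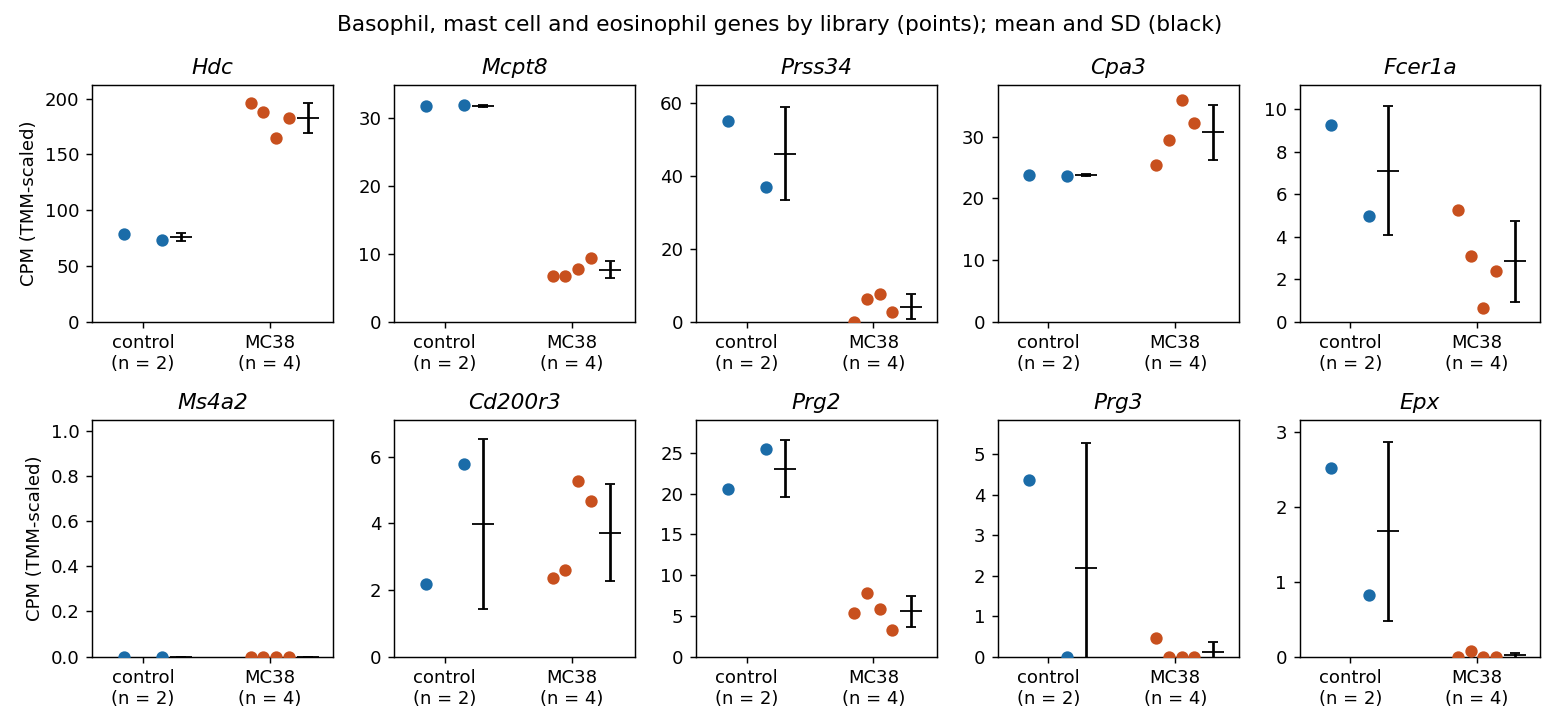
Each panel plots the TMM-scaled CPM of a member (linear axis from 0) in the 2 control libraries (blue) and the 4 MC38 libraries (orange), with the group mean and SD in black. Hdc lies above both controls in every MC38 library, Mcpt8, Prss34, Prg2 and Epx lie below both, and Ms4a2 is at 0 throughout.

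Hdc, the only enzyme that makes histamine from histidine, was the most abundant member by CPM. Its gene (ENSMUSG00000027360) lies on chromosome 2 at 126593667 to 126619299 (GRCm38, the assembly of mm10) and has 6389 exonic bases. The control libraries had 78.7 and 73.8 CPM and the MC38 libraries 195.9, 187.8, 164.6 and 182.9 CPM. The MC38 values lay within a narrow band and the lowest was above both controls. The mean went from 76.3 ± 3.49 to 182.8 ± 13.3 CPM (SD, n = 2 and 4), a 2.40-fold difference, log2 1.26 (SE 0.13). These counts rest on 894 to 2958 reads per library, the deepest of the 10 genes.

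The other genes of histamine handling were nearer to their control levels. Slc18a2, the vesicular transporter that loads histamine into granules, had 93.3 and 98.5 CPM in control and 87.6, 118.4, 161.6 and 133.6 CPM in MC38, so that the groups overlapped (edgeR adjusted p = 0.393). Hnmt, the enzyme that methylates histamine, spread from 10.1 to 43.0 CPM over the MC38 libraries around controls of 16.1 and 19.5 CPM (edgeR adjusted p = 0.527). The receptor gene Hrh4 and the diamine oxidase gene Aoc1 had no count in any of the 6 libraries. Of these histamine genes only Hdc had groups that stood apart, but Hdc had been picked as higher in MC38, so this was fixed by the choice. The difference between its change and theirs was not tested.

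Among the proteases, Mcpt8 and Prss34 were lower in MC38 and Cpa3 was slightly higher. Mcpt8 (ENSMUSG00000022157, chromosome 14: 56082166 to 56085273), a granzyme-like serine protease that marks mouse basophils, had 31.8 and 31.9 CPM in control against 6.73, 6.77, 7.85 and 9.47 CPM in MC38. Both groups were tight and far apart, 4.13-fold (log2 -2.05, SE 0.26).

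Prss34 (ENSMUSG00000056399, chromosome 17: 25298394 to 25300165) encodes the basophil protease also known as mMCP-11. It had 657 and 449 counts in control, 55.2 and 37.1 CPM. The MC38 libraries had 0, 90, 139 and 36 counts, which are 0, 6.15, 7.73 and 2.66 CPM. Every MC38 library was below both controls, and the mean went from 46.1 ± 12.8 to 4.14 ± 3.48 CPM (SD, n = 2 and 4). The fitted change was log2 -3.47 (SE 1.02) and did not pass (edgeR adjusted p = 0.15). The exact two-sided permutation p was 0.0667, the smallest that the 15 splits of 2 against 4 libraries allow. A count of 0 in MC38 replicate 1 allows a level of up to 0.202 CPM (3 counts of its total, counting error only). Without that library the fitted change was log2 -3.05 and the gene was called (edgeR adjusted p = 0.00149), and across all alternatives the adjusted p ran from 0.00149 to 0.646.

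Cpa3 (ENSMUSG00000001865, chromosome 3: 20215620 to 20242181), a carboxypeptidase of mast cell granules that is also transcribed in early progenitors, had 23.9 and 23.7 CPM in control and 25.4, 29.4, 35.95 and 32.3 CPM in MC38. The nearest libraries of the groups differed by little. The change, 1.29-fold (log2 0.37, SE 0.22), did not pass (edgeR adjusted p = 0.41; exact permutation p = 0.133).

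The receptor genes were low or absent. Fcer1a (ENSMUSG00000005339, chromosome 1: 173221284 to 173227214) had 110 and 60 counts in control and 78, 45, 12 and 32 in MC38, or 9.24 and 4.95 CPM against 5.25, 3.08, 0.668 and 2.37 CPM. MC38 replicate 1 exceeded control replicate 2, so the groups overlapped, and the difference of log2 -1.32 (SE 0.71) did not pass (edgeR adjusted p = 0.373; exact permutation p = 0.267). Ms4a2 (ENSMUSG00000024680, chromosome 19: 11615523 to 11623719) had no count in any library, which allows up to 0.125 CPM over the controls and 0.0492 CPM over the MC38 libraries. The beta chain of the IgE receptor was thus not detectable at this depth. Cd200r3 (ENSMUSG00000036172, chromosome 16: 44943678 to 44981380), an activating receptor of basophils and mast cells, had 2.18 and 5.78 CPM in control and 2.35, 2.598, 5.29 and 4.66 CPM in MC38. The 2 controls lay further apart than the lowest and highest MC38 libraries, and the change was log2 -0.10 (SE 0.63, edgeR adjusted p = 0.957; exact permutation p = 0.933).

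The eosinophil granule genes had small counts, and for Prg2 and Epx all MC38 libraries were below both controls. Prg2 (ENSMUSG00000027073, chromosome 2: 84980461 to 84983632), which encodes the major basic protein, had 20.6 and 25.5 CPM in control and 5.38, 7.86, 5.79 and 3.26 CPM in MC38. All MC38 libraries were well below both controls, 4.13-fold on the fitted scale (log2 -2.05, SE 0.36). Its paralogue Prg3 lies 4582 bases away (ENSMUSG00000027072, 84988215 to 84993886). Prg3 had 52 counts in control replicate 1 and 0 in control replicate 2, then 7, 0, 0 and 0 in MC38, so a single library carried nearly all its reads (exact permutation p = 0.333).

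Epx (ENSMUSG00000052234, chromosome 11: 87864000 to 87875536), the eosinophil peroxidase, had 30 and 10 counts in control and 0, 1, 0 and 0 in MC38. The pooled counts of 40 against 1 give a ratio of 101.6, after scaling to library size, with an exact 95% interval of 17.2 to 4111 that covers counting error only. Without control replicate 1 the ratio was 50.3 (7.16 to 2185), and without control replicate 2 it was 153.7 (25.6 to 6271). Since the gene passed the low-count filter through the controls alone, its test supports nothing (edgeR adjusted p = 0.0918). Prg2 thus gave the deepest view of the eosinophil granule, with 44 to 309 counts per library.

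Levels of different genes were compared per kilobase of exon. In control the order was Prss34 (37.8 ± 10.5 CPM per kilobase, SD, n = 2), Mcpt8 (31.9 ± 0.13), Prg2 (27.5 ± 4.15), Cpa3 (15.7 ± 0.080) and Hdc (11.9 ± 0.55). Fcer1a (7.11 ± 3.04), Prg3 (2.30 ± 3.26), Cd200r3 (0.665 ± 0.42) and Epx (0.611 ± 0.44) followed. The libraries of Prss34 and Mcpt8 overlapped, as did those of Prg3 and Cd200r3 and of Cd200r3 and Epx, while the other neighbours in this order stood apart. In MC38 Hdc came first (28.6 ± 2.08 CPM per kilobase, SD, n = 4) and Cpa3 next (20.3 ± 2.94). Mcpt8 (7.72 ± 1.29), Prg2 (6.65 ± 2.25), Prss34 (3.39 ± 2.85) and Fcer1a (2.85 ± 1.90) followed, each with a range that overlapped that of the next. The range of Mcpt8 (6.74 to 9.49) lay above those of Prss34 (up to 6.34) and Fcer1a (up to 5.26). The 3 genes that led in control were behind Hdc and Cpa3 in MC38. Hdc had been picked as higher and Mcpt8 and Prg2 as lower, so their part in this change of order was fixed by the choice. Prss34 (edgeR adjusted p = 0.15) and Cpa3 (0.41), which were not picked, were not called.

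**Figure D2:**
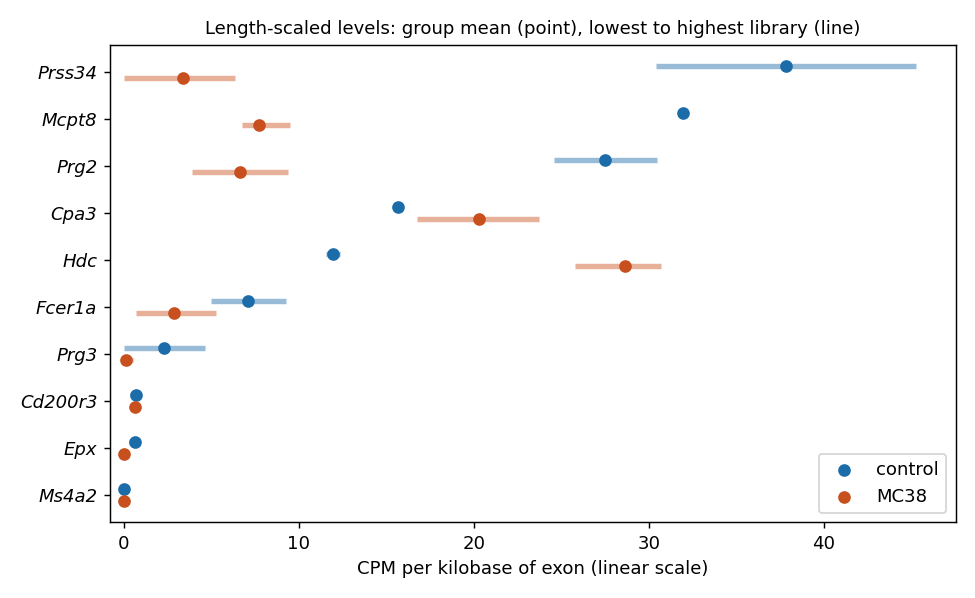
The length-scaled level (CPM per kilobase of exon, linear axis) is drawn for each member in control (blue, n = 2) and MC38 (orange, n = 4), with points for the group mean and lines from the lowest to the highest library. Prss34, Mcpt8 and Prg2 lead in control at 37.8, 31.9 and 27.5, and Hdc and Cpa3 lead in MC38 at 28.6 and 20.3. Hdc, Mcpt8 and Prg2 were picked for their pattern.

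Position and sequence were examined for members that could share reads. No member shares an exonic base with another annotated gene. Of the 50-base windows of their transcripts, none occurs in another gene's transcripts for Mcpt8, Prss34, Cpa3, Fcer1a, Prg2, Prg3 or Epx. The share is 0.141% for Hdc, 2.10% for Ms4a2, where Ms4a4b has the same windows, and 2.69% for Cd200r3. The paralogues Prg2 and Prg3 thus have no such window in common. Several members sit in gene clusters, and the nearest protein-coding genes on each side were read out as a description. Mcpt8 lies between the mast cell protease gene Mcpt4, with no count in any library, and Ctsg, the neutrophil cathepsin G, whose groups overlapped (2625 and 2753 counts in control, 2629 to 3729 in MC38). The serine protease genes Prss28 and Prss29 beside Prss34 had 0 to 9 counts per library. Lpo, the lactoperoxidase gene 35710 bases from Epx, had 5 and 12 counts in control and 0, 0, 0 and 2 in MC38. Of the 36 distinct neighbours that are not members, 12 had no count, 16 could be tested and none was called by edgeR.

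Other genes of these cells were read from 5 lists, in all 87 genes, of which 68 could be tested. In edgeR 3 were higher, 0 were lower and 65 did not pass, against 1.04% higher and 0.569% lower over all genes. DESeq2 called 7 higher and 4 lower of 70, against 4.14% and 2.57% over all genes. These shares over all genes also stand beside the called counts of single lists below. For counts of single lists at an unadjusted p under 0.05, the share over all tested genes was 17.5%. The median log2 change was 0.17, and 0.01 over all tested genes. Positive changes numbered 46 and negative changes 22.

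**Figure D3:**
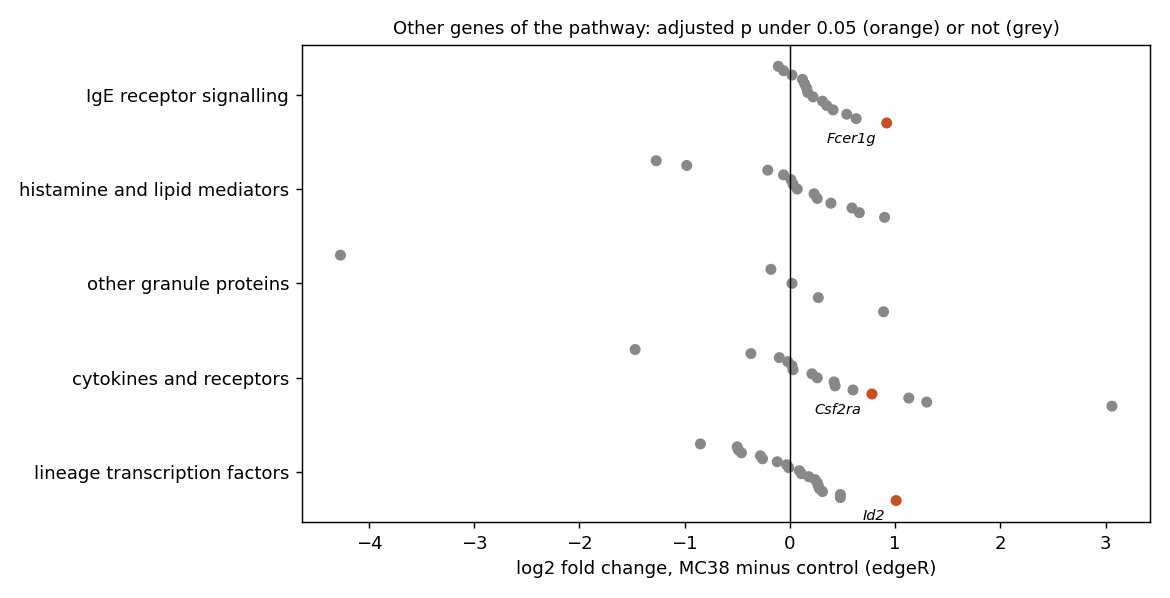
Every tested gene of the 5 lists except Ear1, which had no count in MC38, is a point at its log2 fold change (MC38 minus control, edgeR), orange where the adjusted p is under 0.05 and grey otherwise. Fcer1g, Csf2ra and Id2 are the 3 called genes.

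In the list of IgE receptor signalling, edgeR called 1 of 14 genes higher and none lower, DESeq2 called 3 higher (Fcer1g, Lyn and Plcg2), and the median log2 change was 0.20. The 1 called by edgeR was Fcer1g, the gamma chain, which also serves other Fc receptors of myeloid and NK cells. It had 305.6 and 289.3 CPM in control and 609.4, 575.0, 520.5 and 543.4 CPM in MC38. All MC38 libraries were above both controls, 1.89-fold (log2 0.92, SE 0.12, edgeR adjusted p = 0.00444). With either control left out it missed the threshold (edgeR adjusted p = 0.0797 without replicate 1 and 0.0745 without replicate 2). Of the chains of this receptor, gamma was higher in MC38, alpha was low with overlapping groups, and beta had no count; the difference between their changes was not tested. Lyn, the kinase that phosphorylates the receptor, had 60.1 ± 3.55 and 87.5 ± 6.93 CPM (edgeR adjusted p = 0.102). Plcg2, a phospholipase downstream, had 117.3 ± 5.07 and 155.6 ± 10.7 CPM (edgeR adjusted p = 0.132; SD, n = 2 and 4).

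Among histamine and lipid mediator genes, 13 of 18 could be tested and none was called by edgeR. The unadjusted p was under 0.05 for 3 of them, against 17.5% of all tested genes, and 1, Hpgds, was lower by DESeq2. Hpgds, the haematopoietic prostaglandin D synthase of mast cells, had 18.7 and 16.4 CPM in control and 7.80, 8.48, 5.68 and 7.10 CPM in MC38. Its groups were well apart, with log2 -1.27 (SE 0.30, edgeR adjusted p = 0.0703). Ptgs2, the inducible cyclooxygenase, had 27.95 ± 12.1 and 52.1 ± 14.3 CPM with overlapping groups (edgeR adjusted p = 0.192). Alox15, the lipoxygenase of eosinophils, was counted 2 and 24 times in control and in no MC38 library. Set against 3 counts over the MC38 group, its pooled control level was 22.0-fold higher, with the spread of the controls not covered. Without control replicate 2 only 2 counts are left and no fold can be given, and without control replicate 1 the fold was 40.3.

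Of 14 other granule proteins 6 could be tested and none was called by edgeR. The unadjusted p was under 0.05 for 3, against 17.5% of all tested genes. DESeq2 called 1, Ear1, lower, a gene that passed the filter through the controls alone, so that this call supports nothing. Ear1, Ear2 and Ear6 encode eosinophil-associated ribonucleases, a family of close copies, so their counts are uncertain. Ear1 was counted 28 and 13 times in control and in no MC38 library. Set against 3 counts over the MC38 group, its pooled control level was 34.7-fold higher, with the spread of the controls not covered. That fold was 21.8 without control replicate 1 and 47.8 without control replicate 2. Ear2 lay the other way, with 6.83 ± 0.085 CPM in control and 12.7 ± 1.79 CPM in MC38 (edgeR adjusted p = 0.191). Ear6 was lower, as Ear1 was, with 22 and 13 counts in control and 0, 4, 0 and 0 in MC38. It too passed the filter through the controls alone, so that its test supports nothing (log2 -4.27, SE 1.71, edgeR adjusted p = 0.224). The mast cell protease genes Mcpt2 and Mcpt4 and the tryptase gene Tpsg1 had no count in any library. Tpsb2 had 16 counts in control replicate 1 and none elsewhere. Srgn, the proteoglycan core of many blood cell granules, was at 1198 ± 2.79 and 1213 ± 169.8 CPM (edgeR adjusted p = 0.963).

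Of 21 cytokines and receptors 15 could be tested, and edgeR called 1 higher and none lower, with a median log2 change of 0.26. DESeq2 called 2 higher, Csf2ra and Csf2rb. The 1 called by edgeR was Csf2ra, the alpha chain of the GM-CSF receptor, at 81.0 and 65.5 CPM in control and 131.5, 122.2, 136.4 and 114.2 CPM in MC38. Its groups did not overlap (1.72-fold, log2 0.78, SE 0.15, edgeR adjusted p = 0.0333). Leaving out either control ended the call (edgeR adjusted p = 0.113 for replicate 1 and 0.155 for replicate 2), as did leaving out the MC38 libraries 2 (0.107) and 4 (0.0751). Csf2rb, the beta chain shared by the IL-3, IL-5 and GM-CSF receptors, had 16.6 and 30.4 CPM in control and 50.1, 50.4, 51.5 and 53.9 CPM in MC38. The 4 MC38 values were close together above both controls, and the change just missed the threshold in edgeR (log2 1.13, SE 0.24, adjusted p = 0.0545). Its close copy Csf2rb2 had 6.11 ± 1.87 and 15.0 ± 6.33 CPM (edgeR adjusted p = 0.184), and reads may be split between the pair. The eotaxin receptor gene Ccr3 had no count, and Il5ra, the IL-5 receptor that defines eosinophils, had 2 counts over the controls and 7 over the MC38 libraries.

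All 20 lineage transcription factors were tested, and edgeR called 1 higher and none lower, with a median log2 change of 0.10. DESeq2 called 2 higher (Id2 and Irf8) and 2 lower (Gata2 and Id1). Id2, an inhibitor of E proteins, had 87.1 and 110.3 CPM in control and 170.3, 193.8, 242.0 and 187.3 CPM in MC38 (2.01-fold, log2 1.01, SE 0.17, edgeR adjusted p = 0.0215). No MC38 library was near the controls, but leaving out either control ended the call (edgeR adjusted p = 0.23 for replicate 1 and 0.0831 for replicate 2), as did leaving out the MC38 libraries 2 (0.0751) and 4 (0.0583). Id1, a related inhibitor, had 77.4 ± 19.0 and 42.9 ± 4.98 CPM (edgeR adjusted p = 0.0585). Gata2, the factor shared by stem cells and the mast cell and basophil branch, had 345.1 and 297.1 CPM in control and 221.0, 210.7, 228.9 and 249.9 CPM in MC38. Its libraries did not overlap, and the change of log2 -0.50 (SE 0.12) did not pass in edgeR (adjusted p = 0.0726). Gata1 overlapped between the groups, at 15.8 ± 7.21 and 17.1 ± 5.79 CPM (edgeR adjusted p = 0.921).

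Levels of marker lists for other cells in the same libraries are given as summed CPM per library. For the counts of called markers, the shares over all genes were 1.04% higher and 0.569% lower in edgeR. In DESeq2 they were 4.14% and 2.57%. Neutrophil markers went from 28180 to 28490 CPM in control to 54310 to 61950 CPM in MC38, 1.92 to 2.19 times the control mean, and edgeR called 9 of 12 higher, but 4 without control replicate 1 and 6 without control replicate 2. Hdc alone, which had been picked as higher, was 2.16 to 2.57 times its control mean in the same libraries. All 10 members summed to 203.6 and 228.4 CPM in control and 227.9 to 243.7 CPM in MC38, with overlapping groups. Hdc made up 73.8 and 78.7 CPM of this sum in control and 164.6 to 195.9 CPM in MC38. The 7 members that were not picked summed to 72.3 and 97.4 CPM in control and 33.5 to 49.6 CPM in MC38, 0.395 to 0.585 times the control mean. Of these, Prss34 made up 37.1 to 55.2 CPM in control and 0 to 7.73 CPM in MC38. The lower sum was thus largely that of Prss34, which was not called (edgeR adjusted p = 0.15). Markers of neutrophil precursors were 0.647 to 0.844 times the control mean. Of 7, edgeR called 1 lower (Mpo), and DESeq2 called 2 (Mpo and Ms4a3). Mpo missed the threshold in edgeR without control replicate 1 (adjusted p = 0.239) or 2 (0.123) and without the MC38 libraries 2 (0.103) or 4 (0.12). The sums for markers of erythroid cells and megakaryocytes were 0.766 to 0.874 times, with 0 of 20 called by edgeR. Of the 20, 16 had a negative change and 4 a positive one, with a median log2 change of -0.30. The unadjusted p was under 0.05 for 8, against 17.5% of all tested genes, and DESeq2 called 1 higher (Ppbp). Stem cell markers lay at 0.933 to 1.08 times the control mean, with 0 of 15 called by edgeR, 1 at an unadjusted p under 0.05 and 1 higher by DESeq2 (Ly6a). B and plasma cell markers were 1.83 to 2.10 times, with Ighm higher as the 1 of 10 called by edgeR and by DESeq2. Of the 10, 9 were not called by edgeR, 1 had an unadjusted p under 0.05, and the median log2 change was 0.30. Monocyte and macrophage markers were 1.11 to 1.35 times, a sum made up mostly of Ly6c2. Ly6c2 had 381.3 and 405.5 CPM in control and 423.9 to 537.8 CPM in MC38 (edgeR adjusted p = 0.277). Of the 10, edgeR called 1 higher (C1qa) and DESeq2 called 3 (C1qa, C1qb and C1qc). C1qa had 1 and 3 counts in control and 80, 70, 74 and 40 in MC38. It passed the low-count filter through the MC38 libraries alone, so that its calls support nothing. C1qa missed the threshold with limma-voom (adjusted p = 0.2), and in edgeR without control replicate 1 (adjusted p = 0.179) or 2 (0.0831) and without the MC38 libraries 2 (0.125) or 4 (0.0935). T and NK cell markers summed to 0.901 to 0.998 times, a sum made up mostly of Nkg7 (387.6 and 452.9 CPM in control, 325.8 to 387.6 CPM in MC38). Of these 10 markers 8 had a positive change and the median log2 change was 0.91. None was called by edgeR, 4 were under 0.05 before adjustment, and 3 were higher by DESeq2 (Cd3g, Trbc2 and Klrb1c). No marker of these lists found in the table was at 0 in all 6 libraries. Their part in the differences of the 10 genes was not tested.

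**Figure D4:**
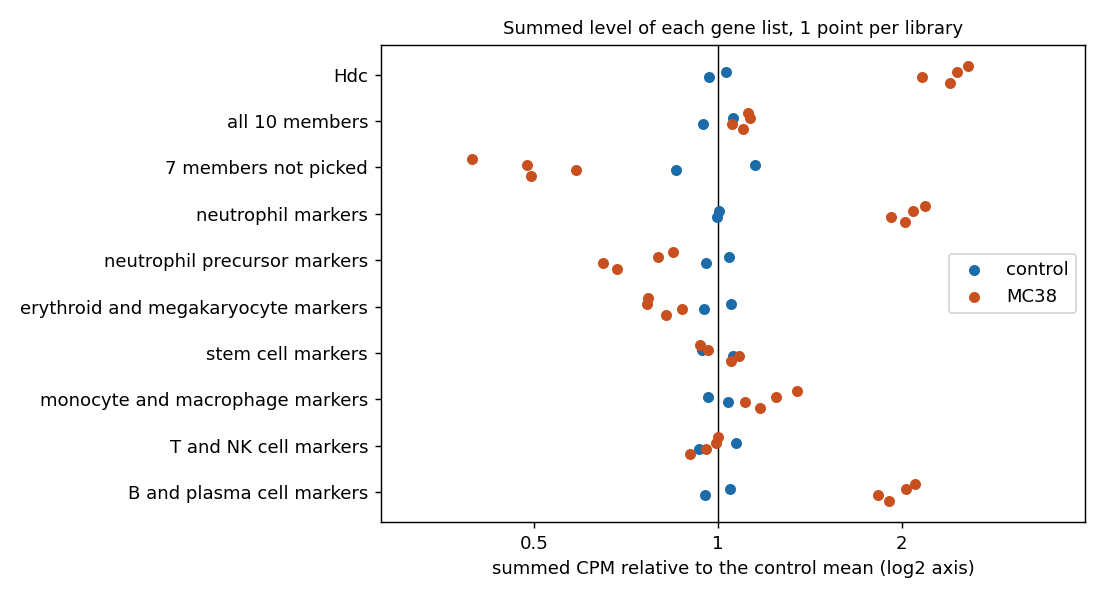
Points are the summed CPM of Hdc, of all 10 members, of the 7 members that were not picked and of 7 marker lists in each library, relative to the mean of the 2 controls (log2 axis; blue control, orange MC38). Hdc lies at 2.16 to 2.57 and neutrophil markers at 1.92 to 2.19 in the MC38 libraries, while the 10 members together lie at 1.06 to 1.13 and the 7 not picked at 0.395 to 0.585. The lower sum of the 7 not picked was largely that of Prss34. Hdc had been picked as higher and was the largest part of the sum of the 10 members in MC38.

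The genes most like the 3 picked members were found by Pearson's r of log2 CPM over the 6 libraries, among 10250 tested genes with a mean of at least 5 CPM. Predicted, clone-named and immunoglobulin genes and the members had been left out of these. Each r includes the gap between the groups and describes likeness without a test. Closest to Hdc were Retnlg (r = 0.998), a resistin-like protein of neutrophils, Fcer1g (0.998) and S100a9 (0.997), a calprotectin subunit. Retnlg had 1313 and 1258 CPM in control and 2788 to 3180 CPM in MC38, and, as for Hdc, MC38 replicate 1 was highest and MC38 replicate 3 lowest. Closest to Mcpt8 were Farsb (0.999), a subunit of phenylalanyl-tRNA synthetase, Ccdc34 (0.997) and Top2a (0.997), the topoisomerase of dividing cells. Closest to Prg2 were Slc35c2 (0.995), Mepce (0.992) and Myg1 (0.989), with smaller differences between the groups: Slc35c2 had 76.4 and 80.5 CPM in control and 61.0 to 68.6 CPM in MC38. The 3 lists had no gene in common.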

How the data were processed

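Whole-number counts for Ensembl genes were deposited by the authors as 1 table with libraries as columns. HTSeq 0.10.0, STAR 2.6.1, Trim Galore 0.5.0 and the build mm10 are named in the submitters' processing notes. Neither strand setting nor annotation release is stated there. The protocol names no molecular identifiers, so intervals cover counting error only. A control column of the deposited table was treated as a score, not as counts, because it followed the other controls, and it enters a single alternative.

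Symbols and exon lengths came from GENCODE M21 (GRCm38), which named 27728 of 28786 gene IDs. Promoters came from RefSeq (GRCm38.p6). edgeR 4.0.16 under R 4.3.3 was run on 2 control and 4 MC38 libraries with TMM, filterByExpr and the robust quasi-likelihood test, with a common biological coefficient of variation of 0.366. All tests were two-sided. SEs of log2 changes were derived from the quasi-likelihood F. Permutation tests used log2(CPM + 0.5). DESeq2 1.42.0 and limma 3.58.1 were alternatives. In simulated counts with 100 genes changed by log2 1 and 100 by log2 2, edgeR recovered 6% and 61%, with 1 false call among 13891 genes. Every simulated gene had the common coefficient of variation, so these shares do not describe genes with less or more spread. Named by rule were all members, in each list the called genes and the 2 of smallest p among the rest, and the 3 genes most like Hdc, Mcpt8 and Prg2; other listed genes were named after their values were seen. Members, lists and rules were chosen with earlier results of these data known.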

Additional observations from a re-analysis of the deposited data

Results flagged for a closer look

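In the MC38 group of 4 libraries, Prg3 and Epx each had a library that stood apart from the other 3. For Prg3 it was replicate 1 with 7 counts, and for Epx replicate 2 with 1 count, while the others had none, so the gap was the whole range of the group (a ratio of 1.0, 0 being no gap). Chance alone flags about 1 in 20 groups, and with counts this low a single read is enough.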

How the results depend on the processing

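Results were recomputed under 15 alternatives. Hdc, Mcpt8 and Prg2 were chosen from this contrast, so the following only limits the count of members called lower. Mcpt8 missed the threshold without control replicate 1 (edgeR adjusted p = 0.0665) and control replicate 2 (0.0537). Prg2 missed it without control replicate 1 (0.142), control replicate 2 (0.133) and MC38 replicate 4 (0.0619). Using all 7 columns counts the control column that is no independent library as a replicate, so its calls rest on an inflated n. Prss34 ran from log2 -4.87 (limma-voom) to -3.05 and was called with all 7 columns (edgeR adjusted p = 0.026) and without MC38 replicate 1. Epx was called with DESeq2, with a filter of 10 counts in every library of 1 group and with all 7 columns, and was not tested without control replicate 1. Cd200r3, at log2 -0.63 to 0.77 when a library was left out, changed sign without control replicate 2 (0.77), MC38 replicate 1 (0.07) and MC38 replicate 2 (0.05). Members called lower numbered 4 with all 7 columns and 0 to 3 when a library was left out, and members called higher 1 throughout.

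Over all genes 148 were higher and 81 lower. These counts were 634 and 393 with DESeq2, 791 and 663 with all 7 columns, 229 and 170 with the filter of 10 counts, 302 and 202 with no filter, 95 and 36 without immunoglobulin genes, and 90 higher with limma-voom. They ran from 44 to 259 and from 16 to 183 when a library was left out, lowest without control replicate 1 and highest without MC38 replicate 1. In the pathway lists 7 genes were higher and 4 lower with DESeq2, 9 and 4 with all 7 columns, 2 lower with the filter of 10 counts and 1 lower with no filter, and 0 to 4 higher and 0 to 1 lower when a library was left out. The cause of these shifts was not tested. Replicate numbers are shared by the groups, but same-numbered libraries did not deviate together (r = 0.061 and -0.017), so the numbers were not taken as a pairing. With the replicate number as a block 269 genes were higher and 190 lower, 1 listed gene was lower, and no member's call changed. Ms4a2, Prg3 and Epx, with 0 to 52 counts per library, are limited by depth.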
